A study of Mus musculus with 8 samples.

Results

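The enzymes and inhibitors that remodel the extracellular matrix were followed in the epididymal fat of obese mice. They are the matrix metalloproteinases (MMPs), the ADAMTS proteases, the ADAMTS-like proteins and the tissue inhibitors of metalloproteinases (TIMPs). Members were all genes whose single annotated symbol was Mmp, Timp, Adamts or Adamtsl followed by a number, with a letter allowed after it. This gave 47 genes of the 18820 measured: 20 MMPs, 4 TIMPs, 18 ADAMTS proteases and 5 ADAMTS-like genes. They came from 73 probe sets, and the probe set with the highest mean stood for each gene. Another 2 probe sets carried a family symbol together with other symbols and were left out.

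The tissue was white fat from the pad beside the testis of male mice. The 4 wild-type arrays (WT) came from C57BL/6 mice bought from a breeder. The 4 transgenic arrays (IL37TG) came from mice of the same background carrying human IL-37, a cytokine of the interleukin-1 family that restrains innate inflammation. Both groups ate a low-fat diet (10% of energy from fat) for 2 weeks and then a high-fat diet (45%) for 16 weeks, so no lean fat is in the comparison. The labels name neither the promoter that drives the transgene nor littermate controls. Whether each replicate was its own mouse is not said, so the p-values reflect only how much these samples vary.

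MMPs are zinc proteases that are made as inactive precursors, and together they cut collagens, gelatin, elastin and many cell surface proteins. TIMPs bind their active sites and block them. ADAMTS enzymes carry thrombospondin repeats that hold them in the matrix, where they trim procollagens and large proteoglycans, and ADAMTS-like proteins keep those repeats without a protease domain. In growing fat, pericellular collagen is cut back to make room for enlarging adipocytes, and macrophages that surround dying adipocytes bring proteases of their own.

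The values were log2 levels, on which a difference of 1 is a 2-fold change, and array medians lay between 5.97 and 6.04. Several arrays read high for genes known from other tissues, by lists written after the values were seen, and the source was not tested. WT replicates 3 and 4 were jointly ahead of all others by at least 1 log2 unit for 102 genes, among them epithelial and motile cilium genes. No other pair of the 28 was jointly ahead for more than 5 genes. IL37TG replicate 4 was ahead alone for 393 genes, WT replicate 3 for 59 and IL37TG replicate 3 for 56. The summed level of 7 sperm formation genes was 12.57 on IL37TG replicate 4 and at most 8.39 elsewhere. That of 8 liver protein genes was 12.85 on IL37TG replicate 3, 11.95 and 11.88 on WT replicates 3 and 4, and 10.57 to 11.14 elsewhere. Results were therefore also computed without these arrays. The adipocyte markers Adipoq, Plin1 and their like were strong on all arrays, with a summed level of 15.05 to 15.13 in wild-type and 15.17 to 15.24 in transgenic fat. No probe set named the human transgene, so the group labels were not checked by it.

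In transgenic fat the gelatinase Mmp9 and the inhibitor Timp4 rose, and the membrane-bound collagenase Mmp14 fell. These were the 3 members of 47 that passed an adjusted p of 0.05 (limma, Benjamini-Hochberg over all genes), or 6.38%, against 3.34% of all genes. The number of members called was 7 without WT replicate 3, 1 (Mmp9) without IL37TG replicate 2 or 3, and 0 without any of the 5 other arrays. The count over all genes moved too. It was 1188 without WT replicate 3, 136 and 424 without IL37TG replicates 2 and 3, and 82 to 231 without the 5 others. With all arrays 629 genes passed, 2.07% of all genes in the higher direction and 1.27% in the lower direction. At an unadjusted p of 0.05, 18 members (38.3%) differed, 6 of them higher and 12 lower, where 20.6% of all genes did (11.2% higher and 9.42% lower). The groups did not overlap for 9 members (19.1%), 4 higher and 5 lower, against 14.0% of all genes (8.24% higher and 5.73% lower). The median difference was -0.04 over the members and 0.02 over all genes, and the median size of the difference was 0.14 and 0.11. The family thus held members on both sides, 21 above 0 and 26 below.

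**Figure D1:**
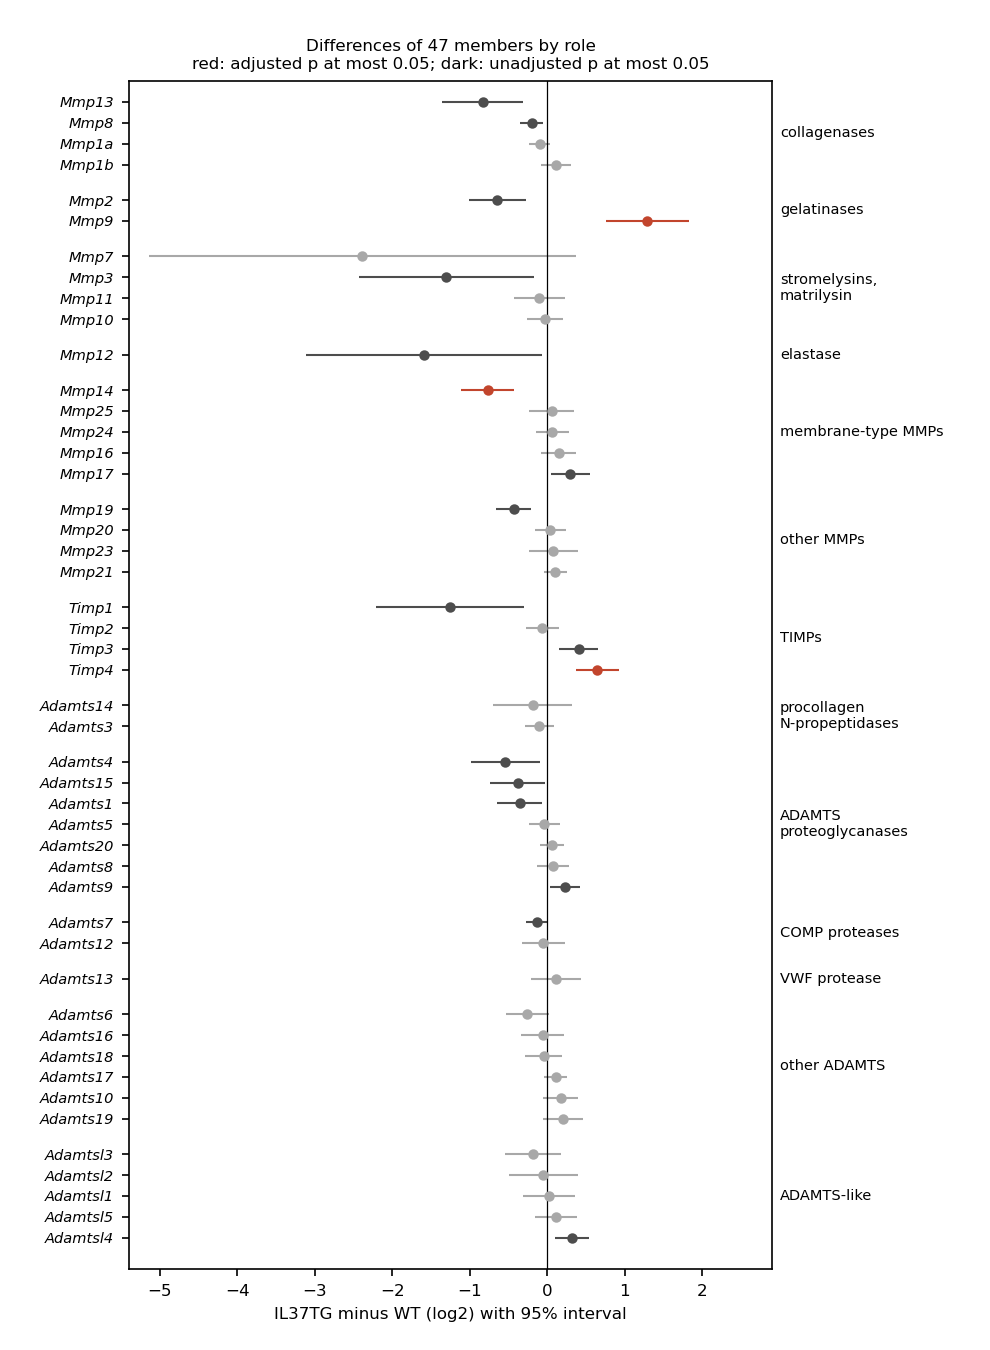
Difference between transgenic and wild-type fat (log2, points) with its 95% interval (lines) for the 47 members, ordered by role. Mmp9, Timp4 and Mmp14 (red) passed the adjusted threshold, 18 members in all had an unadjusted p of at most 0.05 (red or dark), and the interval of Mmp7 ran from -5.14 to 0.36.

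The gelatinases cut denatured collagen and the type IV collagen of basement membranes. Mmp9, gelatinase B, read 6.07, 5.88, 6.46 and 6.34 on WT replicates 1 to 4 and 7.26, 7.03, 8.11 and 7.51 on IL37TG replicates 1 to 4. Each transgenic array was above each wild-type array, and IL37TG replicate 3 was the highest. The mean rose from 6.19 ± 0.26 (SD, n = 4) to 7.48 ± 0.47 (SD, n = 4), a difference of 1.29 (SE 0.23, 2.45-fold, limma adjusted p = 0.0290). The call ended on leaving out any of WT replicates 1, 2 and 4 or IL37TG replicates 1 and 4, with adjusted p from 0.0244 to 0.0932 over the 8 removals. The difference was 1.50 without WT replicates 3 and 4 (adjusted p = 0.0415) and 0.96 without IL37TG replicates 3 and 4 (adjusted p = 0.0798).

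Neutrophils are known for storing gelatinase B in granules. Of the 6 neutrophil markers 5 were measured, and S100a8 (-1.51) and Csf3r (-0.46) were lower in transgenic fat (limma adjusted p = 0.0280 and 0.0201). Retnlg (0.88), Cxcr2 (0.07) and S100a9 (-0.08) did not pass. The summed neutrophil level was 8.26 to 8.56 in wild-type and 7.48 to 8.14 in transgenic fat. The part of neutrophils in the Mmp9 result was not tested. In whole tissue, fewer cells of a type and less RNA per cell cannot be told apart.

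Mmp2, gelatinase A, is made by stromal cells and its precursor is activated at the cell surface by Mmp14. It read 11.10, 10.81, 10.60 and 10.75 in wild-type fat and 9.89, 10.30, 10.53 and 9.97 in transgenic fat. The groups did not overlap, although WT replicate 3 and IL37TG replicate 3 stood close. The difference was -0.64 (SE 0.16) and did not pass (limma adjusted p = 0.0725). The gelatinases thus stood on opposite sides of 0, with the higher one past the threshold.

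Membrane-type MMPs are tethered to the cell surface and work next to the cell. Mmp14 (MT1-MMP), which cuts fibrillar collagen and activates the Mmp2 precursor, read 9.28, 9.05, 8.74 and 8.85 on WT replicates 1 to 4. On IL37TG replicates 1 to 4 it read 8.39, 8.20, 8.39 and 7.88. All transgenic arrays were below all wild-type arrays, with IL37TG replicate 4 the lowest. The mean fell from 8.98 ± 0.23 (SD, n = 4) to 8.21 ± 0.24 (SD, n = 4), which is a difference of -0.77 (SE 0.15, 1.70-fold, limma adjusted p = 0.0384). The call held on leaving out WT replicate 3 and ended on leaving out any of the 7 other arrays, with adjusted p up to 0.1005. The difference was -0.95 without WT replicates 3 and 4 (adjusted p = 0.0313) and -0.69 without IL37TG replicates 3 and 4 (adjusted p = 0.117).

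Mmp17 (MT4-MMP), which a lipid anchor holds in the membrane, read 5.18, 5.05, 5.11 and 5.28 in wild-type fat. In transgenic fat it read 5.23, 5.75, 5.42 and 5.41, so IL37TG replicate 1 lay within the wild-type range. Its difference of 0.30 did not pass (limma adjusted p = 0.181). Of 5 membrane-type MMPs measured, Mmp14 alone was called, and 4 of the 5 differences were above 0.

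**Figure D2:**
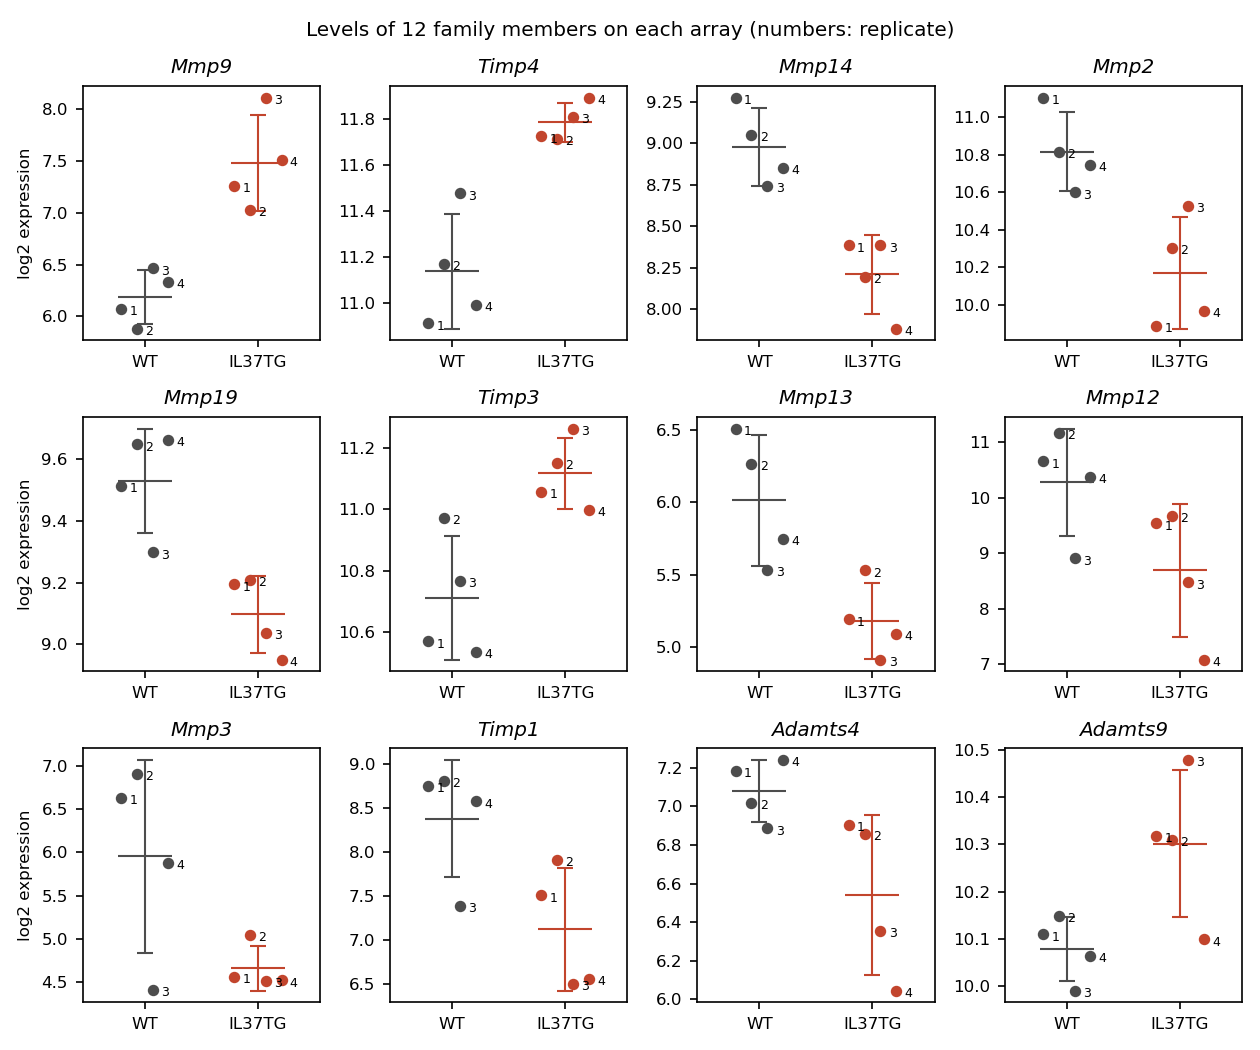
Log2 level of 12 members on each array, with the replicate number beside each point, the group mean (long bar) and the SD (error bar); each panel has its own axis. Mmp9, Timp4 and Timp3 were higher and Mmp14, Mmp2, Mmp19 and Mmp13 lower on all 4 transgenic arrays than on any wild-type array, while WT replicate 3 was the lowest wild-type array for Mmp12, Mmp3 and Timp1.

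Among the 4 TIMPs, Timp4 rose, and the others did not pass, with differences of 0.40 for Timp3, -1.26 for Timp1 and -0.06 for Timp2. Timp4, an inhibitor that fat and heart are known to make, read 10.91, 11.17, 11.48 and 10.99 on WT replicates 1 to 4 and 11.72, 11.71, 11.81 and 11.89 on IL37TG replicates 1 to 4. The transgenic arrays lay close together and above every wild-type array. The mean rose from 11.14 ± 0.25 (SD, n = 4) to 11.78 ± 0.08 (SD, n = 4), a difference of 0.64 (SE 0.12, 1.56-fold, limma adjusted p = 0.0334). The call held on leaving out WT replicate 3 and ended on leaving out any other array, with adjusted p from 0.00830 to 0.109. The difference was 0.74 without WT replicates 3 and 4 (adjusted p = 0.0197) and 0.58 without IL37TG replicates 3 and 4 (adjusted p = 0.159). Of the 8 adipocyte markers, Adipoq (0.30) and Slc2a4 (0.74) also passed the threshold (limma adjusted p = 0.0309 and 0.0188). Pparg (0.22), Lipe (0.17), Plin1 (0.11), Cidec (0.10), Fabp4 (0.06) and Lep (-0.06) did not pass. The part of adipocyte genes in the Timp4 result was not tested.

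Timp3 binds to the matrix and also blocks the aggrecan-cutting ADAMTS enzymes and Adam17. It read 10.57, 10.97, 10.77 and 10.54 in wild-type and 11.06, 11.15, 11.26 and 11.00 in transgenic fat. The groups did not overlap, but WT replicate 2 was almost level with IL37TG replicate 4, and the difference of 0.40 did not pass (limma adjusted p = 0.0830).

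Timp1, a secreted inhibitor known to increase in inflamed fat, read 8.75, 8.81, 7.39 and 8.57 in wild-type fat. In transgenic fat it read 7.51, 7.91, 6.51 and 6.56. WT replicate 3 lay below IL37TG replicates 1 and 2, so the groups overlapped. The difference was -1.26 (95% interval -2.21 to -0.30) and did not pass (limma adjusted p = 0.139). Without WT replicate 3 it was -1.59 and passed (adjusted p = 0.0421), and without IL37TG replicates 3 and 4 it was -0.67 (adjusted p = 0.459).

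Timp2, which joins Mmp14 in activating the Mmp2 precursor, read 11.60, 11.45, 11.31 and 11.47 in wild-type fat and 11.31, 11.56, 11.22 and 11.49 in transgenic fat. The groups overlapped widely, and the interval of the difference ran from -0.28 to 0.15. Timp1, Timp3 and Timp4 each lie within a synapsin gene, Syn1, Syn3 and Syn2, in the annotation. Those host genes differed by -0.31, 0.19 and -0.0026, with limma adjusted p of 0.474, 0.558 and 0.986.

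The collagenases open the triple helix of fibrillar collagen. Mmp13, the main interstitial collagenase of rodents, read 6.51, 6.27, 5.53 and 5.75 in wild-type fat. In transgenic fat it read 5.19, 5.53, 4.91 and 5.09. The groups met at 5.53, where WT replicate 3 and IL37TG replicate 2 stood almost level. The difference was -0.83 (SE 0.23) and did not pass (limma adjusted p = 0.0873), but it passed without WT replicate 3 (-0.99, adjusted p = 0.0362). Mmp8, the collagenase of neutrophil granules, was among the 10 members whose mean lay below 4.49, the 25th percentile of all gene means, near the low end of the range. It read 3.49 to 3.69 in wild-type and 3.28 to 3.45 in transgenic fat (limma adjusted p = 0.130), and no fold is given for it.

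Mmp12, the elastase of macrophages, read 10.66, 11.17, 8.91 and 10.39 on WT replicates 1 to 4. On IL37TG replicates 1 to 4 it read 9.54, 9.67, 8.48 and 7.07. WT replicate 3 was below IL37TG replicates 1 and 2, and IL37TG replicate 4 was far below the rest. The difference of -1.59 had an interval from -3.11 to -0.07 and did not pass (limma adjusted p = 0.222). It was -1.05 without IL37TG replicate 4, -2.05 without WT replicate 3 and -0.68 without IL37TG replicates 3 and 4.

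Mmp3, stromelysin-1, cuts proteoglycans and activates precursors of other MMPs. It read 6.63, 6.91, 4.41 and 5.88 in wild-type fat and 4.56, 5.05, 4.51 and 4.51 in transgenic fat. WT replicate 3 alone among the wild-type arrays was at the transgenic level. The difference was -1.30 (limma adjusted p = 0.186). Without WT replicate 3 it was -1.82 and passed (adjusted p = 0.0132), and without WT replicates 3 and 4 it was -2.12 (adjusted p = 0.00957).

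Macrophage markers are given beside these values. Of 8 markers of lipid-associated macrophages 7 were measured, and their summed level was 13.92, 14.00, 12.57 and 13.47 in wild-type and 12.40, 12.42, 12.15 and 11.53 in transgenic fat. WT replicate 3 was the lowest wild-type array and IL37TG replicate 4 the lowest transgenic array, as for Mmp12. The marker Trem2 alone of the 7 passed the threshold (-2.02, limma adjusted p = 0.0454), or 14.3% against 3.34% of all genes. The groups did not overlap for 5 of the 7 (71.4%), all lower, against 14.0% of all genes (5.73% lower). The median difference was -1.23. For general macrophage markers, 11 of 12 measured, the summed level was 14.42, 14.45, 13.71 and 14.17 in wild-type and 13.81, 13.77, 13.81 and 13.46 in transgenic fat. IL37TG replicate 3, the lowest array for Timp1, was level with IL37TG replicate 1 at the top of the transgenic arrays for this list. For the lipid-associated list it was below IL37TG replicates 1 and 2. Fcgr1 alone of the general markers passed (-1.09, adjusted p = 0.0469), or 9.09% against 3.34% of all genes, and their median difference was -0.53. The part of these genes in the Mmp12, Mmp3, Mmp13, Mmp14 and Timp1 results was not tested.

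Mmp19, an MMP of many tissues, read 9.51, 9.65, 9.30 and 9.66 in wild-type and 9.19, 9.21, 9.04 and 8.95 in transgenic fat. The groups did not overlap, and WT replicate 3 was again nearest to the transgenic arrays. The difference of -0.43 (SE 0.10) fell short of the threshold (limma adjusted p = 0.0585) and passed without WT replicate 3 (-0.51, adjusted p = 0.0194).

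Mmp7, matrilysin, is a small MMP that glandular and airway epithelia are known to secrete. It read 4.40, 4.42, 9.55 and 8.94 on WT replicates 1 to 4 and 4.50, 4.39, 4.52 and 4.34 on IL37TG replicates 1 to 4. Thus WT replicates 3 and 4 were far above the other 6 arrays, which lay between 4.34 and 4.52. The difference was -2.39 (SE 1.20, limma adjusted p = 0.305), and without WT replicates 3 and 4 it was 0.03 (adjusted p = 0.889). Of the 102 genes on which WT replicates 3 and 4 were jointly ahead, Mmp7 had the widest lead, 4.42 log2 units, and no other member was among them.

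Most of the listed epithelial and motile cilium genes were high on the same arrays, by lists written after the values were seen. The epithelial genes Krt7 and Cldn4 and the cilium genes Rsph1 and Spag6 were instead highest on IL37TG replicate 4. The 12 epithelial genes summed to 9.07, 8.79, 11.16 and 10.75 on WT replicates 1 to 4 and to 9.29 to 9.49 on the transgenic arrays. The epithelial adhesion gene Epcam read 3.84, 4.05, 7.87 and 7.18 on the wild-type arrays and 3.96 to 4.26 on the transgenic arrays. The 10 motile cilium genes measured summed to 7.91, 8.04, 10.70 and 9.75 on the wild-type arrays and to 7.73 to 8.76 on the transgenic arrays. Of 6 epididymis markers 5 were measured and summed to 6.29 to 6.45 in wild-type and 6.31 to 6.54 in transgenic fat. The 6 mesothelial markers summed to 11.04, 10.49, 11.21 and 11.36 on WT replicates 1 to 4. WT replicates 3 and 4 were thus the highest wild-type arrays for that list, and the transgenic arrays ran from 10.94 to 11.60. The part of epithelial RNA in the Mmp7 values was not tested.

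**Figure D3:**
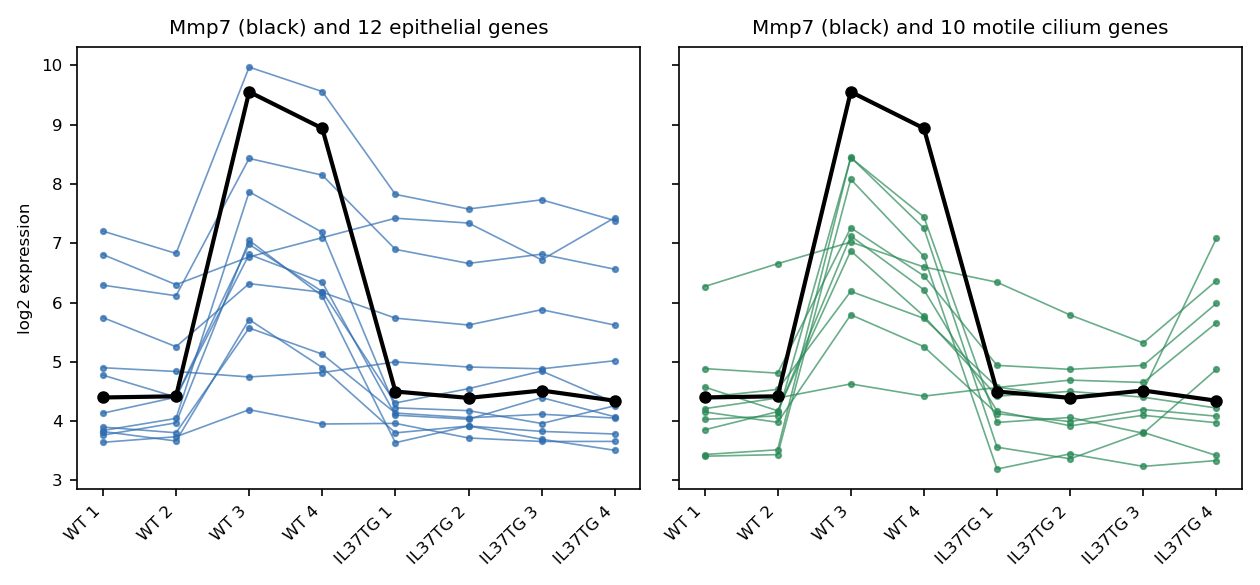
Log2 level of Mmp7 (black) on each array beside 12 epithelial genes (left, blue) and 10 motile cilium genes (right, green), lists written after the values were seen. Mmp7 read 9.55 and 8.94 on WT replicates 3 and 4 and at most 4.52 elsewhere, and most genes of both lists peaked on the same arrays.

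Mmp7, Mmp13, Mmp12 and Mmp3 belong to a run of MMP genes on chromosome 9. In the annotation its 10 genes lie in the order Mmp13, Mmp12, Mmp1b, Mmp3, Mmp1a, Mmp10, Mmp8, Mmp27, Mmp20 and Mmp7, with no other protein-coding gene between them. Mmp27 was not analysed here. Of the 9 with values, 5 (Mmp1b, Mmp1a, Mmp10, Mmp8 and Mmp20) had means below the 25th percentile in this fat. None of the 9 passed the threshold (limma), and Mmp1b, Mmp1a, Mmp10 and Mmp20 had differences between -0.10 and 0.12. WT replicate 3 was the lowest wild-type array for Mmp13, Mmp12 and Mmp3, near one end of the run, and the highest for Mmp7 at the other end.

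**Figure D4:**
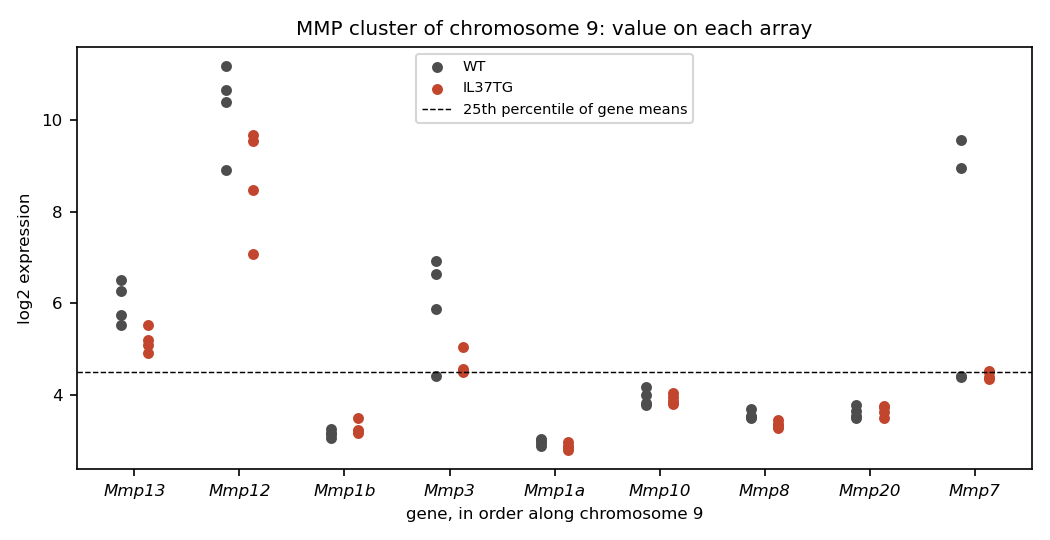
Log2 level on each array of the 9 measured MMP genes of chromosome 9, in their order along the chromosome (evenly spaced, not to scale), wild-type in grey and transgenic in red. The dashed line is the 25th percentile of gene means (4.49): Mmp1b, Mmp1a, Mmp10, Mmp8 and Mmp20 lie below it, and Mmp7 is far above it on WT replicates 3 and 4 only.

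The promoters of this run share a short sequence, and they are shown for that reason. AP-1, the dimer of Fos and Jun proteins known to act on MMP genes, binds sites such as TGAGTCA and TGACTCA. The motif searched was TGANTCA, which reads the same on both strands. RefSeq promoters (GRCm38.p6, from 250 bases before to 50 after the gene start) were at hand for 32 of the 47 members. Of the 9 measured genes of the run 8 held TGANTCA, at positions from -95 to -35, and Mmp8 did not. The motif was in 0 of the 23 other members with a promoter and in 7.81% of all 32851 promoters. A match describes the letters and does not show binding. The 100 bases before the start are given 5′ to 3′ on the strand of each gene with the match in capitals. Mmp13 is chr9:7272414-7272513 (+), Mmp12 chr9:7347274-7347373 (+), Mmp1b chr9:7388027-7388126 (-) and Mmp3 chr9:7445722-7445821 (+). Mmp1a is chr9:7464041-7464140 (+), Mmp10 chr9:7502242-7502341 (+), Mmp20 chr9:7628131-7628230 (+) and Mmp7 chr9:7691990-7692089 (+). Mmp12 and Mmp7 each had 2 promoter entries, and the entry with the match is shown.
Mmp13: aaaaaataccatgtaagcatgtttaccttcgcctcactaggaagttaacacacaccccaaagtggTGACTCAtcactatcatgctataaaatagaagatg
Mmp12: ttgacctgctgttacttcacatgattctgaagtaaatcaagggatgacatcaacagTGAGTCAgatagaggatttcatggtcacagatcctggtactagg
Mmp1b: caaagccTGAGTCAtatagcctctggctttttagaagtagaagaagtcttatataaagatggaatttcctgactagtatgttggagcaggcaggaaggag
Mmp3: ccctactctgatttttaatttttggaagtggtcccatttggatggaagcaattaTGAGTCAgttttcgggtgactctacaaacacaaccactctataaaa
Mmp1a: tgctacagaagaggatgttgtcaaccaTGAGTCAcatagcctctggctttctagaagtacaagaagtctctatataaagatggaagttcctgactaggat
Mmp10: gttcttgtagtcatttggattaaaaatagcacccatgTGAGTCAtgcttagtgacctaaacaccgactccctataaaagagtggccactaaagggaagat
Mmp20: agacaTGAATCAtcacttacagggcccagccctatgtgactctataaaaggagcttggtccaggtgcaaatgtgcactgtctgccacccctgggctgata
Mmp7: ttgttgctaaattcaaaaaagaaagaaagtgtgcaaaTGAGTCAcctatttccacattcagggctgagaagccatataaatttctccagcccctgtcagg

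The 8 matches were TGAGTCA in Mmp12, Mmp1b, Mmp3, Mmp1a, Mmp10 and Mmp7, TGACTCA in Mmp13 and TGAATCA in Mmp20. All 9 measured genes of the run also held TATAAA, the letters of a TATA box, on either strand. So did 3 of the 23 members elsewhere and 13.6% of all promoters. In Mmp12 the match stood at position 5, after the gene start, and in Mmp8 at -3 as its complement TTTATA.

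Of the called members, Mmp14 and Timp4 had promoter entries, printed here because the results turn on them. Both held AGGAAG, a motif of Ets factors, as did 15 of the 32 members with a promoter and 35.4% of all promoters, searched on both strands. The 3 motifs can share at most an end letter. AGGAAG stood at -209 in Mmp14 and, as its complement CTTCCT, at -111 in Timp4. The 250 bases before the start are given 5′ to 3′ on the strand of the gene, with the match in capitals, for Mmp14 at chr14:54431348-54431597 (+) and Timp4 at chr6:115252206-115252455 (-).
Mmp14: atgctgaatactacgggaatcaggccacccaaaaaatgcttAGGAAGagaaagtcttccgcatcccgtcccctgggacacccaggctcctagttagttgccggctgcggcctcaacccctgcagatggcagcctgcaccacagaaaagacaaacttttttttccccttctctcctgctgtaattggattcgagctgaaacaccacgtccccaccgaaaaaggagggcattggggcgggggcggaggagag
Timp4: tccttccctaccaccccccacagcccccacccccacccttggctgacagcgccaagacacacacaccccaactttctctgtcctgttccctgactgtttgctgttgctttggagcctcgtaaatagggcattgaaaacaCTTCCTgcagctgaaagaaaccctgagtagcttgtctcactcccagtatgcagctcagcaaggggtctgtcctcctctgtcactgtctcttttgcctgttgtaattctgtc

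A list of 20 transcription factors (AP-1, Ets, NF-kappaB and Smad) and cytokines known to act on MMP genes had 17 measured. None passed the threshold (limma), 4 were lower and 0 higher at an unadjusted p of 0.05 (23.5%, against 20.6% of all genes), and the median difference was -0.11 against 0.02 over all genes. Fos, named after its values were seen, read 6.53 to 7.51 in wild-type and 5.89 to 6.50 in transgenic fat (-0.91, adjusted p = 0.0699). WT replicate 3 was the lowest wild-type array and IL37TG replicate 4 the lowest transgenic array for Fos as well. The other AP-1 genes measured, named likewise, differed by -0.34 (Fosl2), -0.12 (Junb), -0.05 (Jund), -0.01 (Jun) and 0.05 (Fosb). The part of AP-1 genes in the MMP values was not tested.

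The ADAMTS proteases gave no call among 18 (limma), with 1 higher and 4 lower at an unadjusted p of 0.05. That is 27.8%, against 20.6% of all genes. The median difference was -0.05 over the 18. ADAMTS1, 4, 9 and 15 cut versican and aggrecan, the large proteoglycans of the matrix. Adamts4 read 7.18, 7.02, 6.89 and 7.24 in wild-type and 6.90, 6.86, 6.36 and 6.04 in transgenic fat, where IL37TG replicate 1 just exceeded WT replicate 3 (-0.54, adjusted p = 0.165). Adamts1 read 9.15, 8.94, 9.53 and 9.19 in wild-type and 8.81, 9.01, 8.87 and 8.67 in transgenic fat (-0.36, adjusted p = 0.164). WT replicate 3 was the highest array for Adamts1.

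Adamts15 read 6.90 to 7.56 in wild-type and 6.51 to 6.96 in transgenic fat (-0.38, limma adjusted p = 0.215). Adamts9 stood on the other side of 0, with 10.11, 10.15, 9.99 and 10.06 in wild-type and 10.32, 10.31, 10.48 and 10.10 in transgenic fat (0.22, adjusted p = 0.186). IL37TG replicate 4 alone lay within the wild-type range. All 6 probe sets of Adamts9 gave differences above 0, from 0.11 to 0.26.

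None of the other named ADAMTS genes passed. Adamts7, which cuts the cartilage oligomeric matrix protein, read 6.77 to 6.92 in wild-type and 6.63 to 6.78 in transgenic fat (limma adjusted p = 0.240). Adamts6 read 6.38 to 6.87 and 6.11 to 6.45 (-0.26, adjusted p = 0.272). Adamts10, linked to the fibrillin microfibrils of connective tissue, read 8.53 to 8.78 and 8.56 to 8.96 (0.17, adjusted p = 0.364). Adamts14, which trims the amino-terminal end of procollagens, read 5.47 to 6.11 and 5.29 to 6.18 (-0.19, adjusted p = 0.674). Adamts19 was another dim gene, under the 25th percentile, with 4.01 to 4.18 and 4.07 to 4.61 (adjusted p = 0.355). The wild-type and transgenic ranges overlapped for all 5.

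Among the 5 ADAMTS-like genes none passed. Adamtsl4, a fibrillin-binding protein, read 7.07, 6.93, 6.95 and 7.05 in wild-type and 7.52, 7.41, 7.11 and 7.21 in transgenic fat. The groups did not overlap, with WT replicate 1 just under IL37TG replicate 3, and the difference of 0.31 had a limma adjusted p of 0.117. Adamtsl3 read 6.00 to 6.57 and 5.92 to 6.49 (-0.19, adjusted p = 0.533).

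The remaining 22 members had differences from -0.10 to 0.14 and adjusted p of at least 0.397 (limma). They were Mmp1a, Mmp1b, Mmp10, Mmp11, Mmp16, Mmp20, Mmp21, Mmp23, Mmp24, Mmp25, Adamts3, Adamts5, Adamts8, Adamts12, Adamts13, Adamts16, Adamts17, Adamts18, Adamts20, Adamtsl1, Adamtsl2 and Adamtsl5. Their 95% intervals lay between -0.50 and 0.43, so larger differences than these were outside the interval of every gene in that group. Of the 22, 8 had means below the 25th percentile. Adamts3 had 16 probe sets, of which 14 gave differences below 0 and 2 above, from -0.46 to 0.18. In the annotation Adamts4, Mmp19, Mmp23, Mmp24, Mmp25 and Timp2 each overlap another protein-coding gene in part, and the signals of such pairs were not separated here.

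Genes that activate, bind or clear these proteases were covered by a list of 32, of which 29 were measured. It had 0 higher and 1 lower past the threshold, or 3.45%, close to the 3.34% of all genes. At an unadjusted p of 0.05 it had 5 higher and 7 lower, or 41.4%, against 20.6% of all genes. The called gene was Itgav, the integrin alpha-v chain that docks matrix proteins and Mmp2 at the cell surface. It read 9.80, 9.86, 9.64 and 9.82 in wild-type and 9.38, 9.36, 9.22 and 9.20 in transgenic fat (-0.49, SE 0.07, limma adjusted p = 0.0170). All transgenic arrays were below all wild-type arrays, and the call held in 5 of 8 removals of an array, ending without WT replicates 1, 2 or 4.

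The nearest genes of that list below the threshold, named after their values were seen, were Pcsk6 and Pcolce. Pcsk6, a proprotein convertase of the furin family, read 8.48 to 8.73 in wild-type and 8.99 to 9.75 in transgenic fat (0.73, limma adjusted p = 0.0509). Pcolce, which speeds the trimming of procollagen, read 10.31 to 10.93 and 9.95 to 10.14 (-0.55, adjusted p = 0.0572). The list's median difference was -0.06.

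Matrix proteins that these enzymes cut were covered by a list of 36, of which 34 were measured. It had 0 higher and 1 lower past the threshold (limma), or 2.94%, against 3.34% of all genes. At an unadjusted p of 0.05 it had 2 higher and 10 lower, or 35.3% against 20.6%, and its median difference was -0.14. The called gene was Ncan, neurocan, a proteoglycan best known from brain. It read 8.46, 8.26, 7.96 and 8.20 in wild-type and 7.83, 7.73, 7.69 and 7.54 in transgenic fat (-0.52, SE 0.11, adjusted p = 0.0469). The groups did not overlap, and the call ended on leaving out any array but WT replicate 3.

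Col4a2 (-0.41, a basement membrane collagen), Lum (-0.76, a collagen-binding proteoglycan) and Col1a1 (-0.63, the main fibrillar collagen), named after their values were seen, did not pass. Their limma adjusted p were 0.0509, 0.0565 and 0.0981, and their groups did not overlap. Of 9 fibroblast and progenitor markers 8 were measured and summed to 11.92 to 12.17 in wild-type and 11.87 to 12.21 in transgenic fat. Fap, a surface protease of activated fibroblasts, was the called gene among them (-0.45, adjusted p = 0.0270), or 12.5% against 3.34% of all genes. Of the 8, 3 were above 0, up to 0.63 for Pi16, and 5 below, with a median difference of -0.02. Their part in the Mmp2, Mmp14 and collagen values was not tested.

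ADAM proteases are the membrane-bound relatives that release cytokines and receptors from cells. All 12 listed were measured and 0 passed (limma), with 1 higher and 5 lower at an unadjusted p of 0.05, that is 6 of 12 where 20.6% of all genes differed, and a median difference of -0.27. Adam8, an ADAM of leukocytes named after its values were seen, read 9.96, 10.09, 8.31 and 9.42 in wild-type and 8.11, 8.04, 7.56 and 6.57 in transgenic fat (-1.88, adjusted p = 0.0694). WT replicate 3 and IL37TG replicate 4 were the lowest of their groups, as for Mmp12. Adam17, which releases tumour necrosis factor from cells and was chosen likewise, differed by -0.50 (adjusted p = 0.0890).

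The array names hold a well-like code, taken here for a plate row (letter) and column (number). Row F held wild-type arrays only, row H transgenic arrays only, and row G held WT replicates 3 and 4 with IL37TG replicate 1. Within row G the differences were 0.86 for Mmp9, 0.49 for Timp4 and -0.41 for Mmp14. Within columns 5, 7 and 9 they were 0.57, 1.91 and 1.51 for Mmp9, 0.24, 0.85 and 0.63 for Timp4, and -0.55, -0.68 and -0.92 for Mmp14. The directions were the same in each, with 1 or 2 arrays a group. They had to be, because the groups did not overlap for these 3 genes. A fit with plate row as a block gave these 3 genes the differences of row G, and they did not pass (limma adjusted p = 0.470, 0.464 and 0.532). Rows F and H each held 1 group, so there row and group cannot be told apart.

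**Figure D5:**
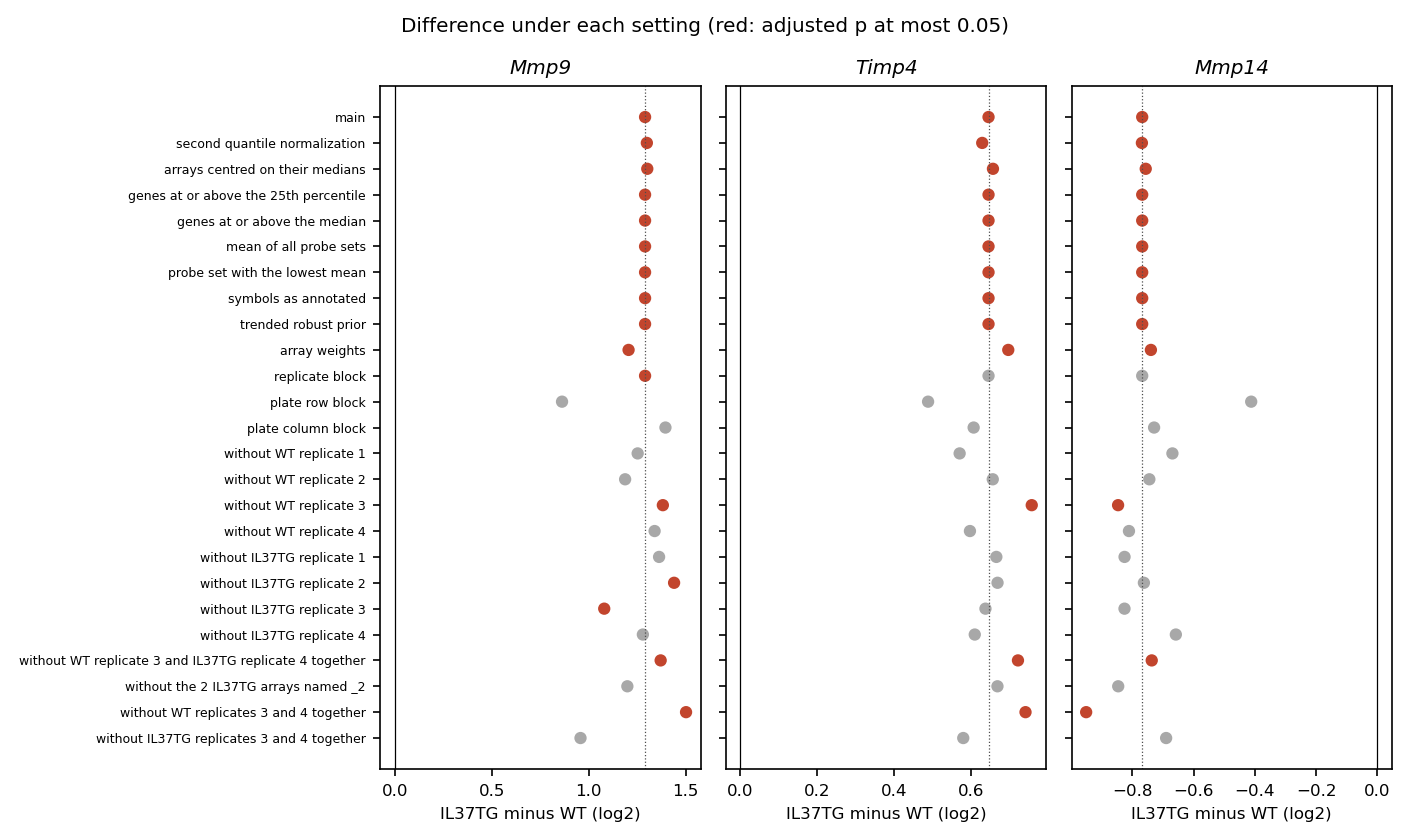
Difference between transgenic and wild-type fat (log2) for Mmp9, Timp4 and Mmp14 under the reported setting and 24 alternatives; red points passed an adjusted p of 0.05 and grey points did not. Mmp9 ran from 0.86 to 1.50, Timp4 from 0.49 to 0.76 and Mmp14 from -0.95 to -0.41.

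Over the 24 alternatives Mmp9 passed in 15, Timp4 in 12 and Mmp14 in 12. None of them changed direction, but their groups did not overlap, so no removal of arrays could change it. The settings that ended a call were the blocks for plate position or replicate number and the removals of arrays. Other normalizations, filters, priors and array weights ended none of these 3 calls. Probe set and symbol choices ended none either, but they could not change the values of these genes. Each of the 3 had a single probe set, and the symbol update changed no family symbol.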

How the data were processed

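RNA was measured on 8 single-colour arrays after whole-transcript amplification and biotin labelling, per the labels' protocols. The values deposited by the authors are log2 expression per probe set. The submitters' processing notes name RMA, which corrects background, equalises arrays by quantiles and summarises probes, so that a shift shared by most genes is hidden and dim probe sets understate differences. The version of RMA and a genome build for the files are not given in the sources used here. Of 35556 probe sets 21218 had 1 symbol, 1881 several and 12457 none in the annotation table, and 21185 symbols were taken through the Entrez identifier. The probe set with the highest mean was kept for each of 18820 genes.

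A linear model of the 4 IL37TG against the 4 WT arrays was fitted to all genes in R 4.3.3 by limma 3.58.1, with empirical Bayes moderation, 2-sided tests, no covariate, no filter and a Benjamini-Hochberg threshold of 0.05. Differences are IL37TG minus WT, with 95% intervals. The number of arrays limits the precision. Genes with means below the 25th percentile (4.49) were called dim and given no fold. The named genes were members past the threshold, members with an unadjusted p of at most 0.05, the 4 Timp genes, the 6 other members with the largest difference, and genes of the 4 related lists past the threshold. Other genes outside this rule are cell markers, hosts of Timp genes, or are said to be named after their values were seen. The members and lists were chosen with earlier results of these data known, and the epithelial, motile cilium, sperm formation and liver protein lists were written after the values were seen.

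The model was also tested on simulated data holding known changes. Alternatives were other normalizations, filters, probe set choices, priors, weights, blocks, removals of arrays and thresholds. Removals of WT replicates 3 and 4 together and of IL37TG replicates 3 and 4 together were added after the data were seen. RefSeq promoters (GRCm38.p6) matched 32 members by symbol, and 15 had no entry. Summed marker levels are log2 of the sum of linear values. Plots were made in Python 3.11.15 (matplotlib 3.10.9).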

Additional observations from a re-analysis of the deposited data

Results flagged for a closer look

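For the 27 named genes each group of 4 arrays was searched for an array far from the other 3, and 2 of 54 groups had such an array. Chance gives about 1 in 20 groups. Mmp3 read 5.05 on IL37TG replicate 2, where the other transgenic arrays read 4.51 to 4.56. Timp1 read 7.39 on WT replicate 3, where the other wild-type arrays read 8.57 to 8.81.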

How the results depend on the processing

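Over the alternatives, the 27 named genes kept their direction and their side of the threshold in 561 values, gained the threshold in 18, lost it in 54 and changed direction in 4. The changes of direction were Adamts14 (0.60) and Adamtsl3 (0.36) with plate row as a block, Adamts14 without IL37TG replicates 3 and 4 (0.14) and Mmp7 without WT replicates 3 and 4 (0.029). The cause was not tested.

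The counts past the threshold (limma) moved more. On leaving out a single array, members ran from 0 to 7, all genes from 82 to 1188, the regulator list from 0 to 5, the substrate list from 0 to 4, the ADAM list from 0 to 2 and the upstream list from 0 to 2. The 7 members were reached without WT replicate 3, and the 1 without IL37TG replicate 2 or 3 was Mmp9. Among genes at or above the median, 6 members, 1295 genes, 5 regulators, 5 substrates, 4 ADAM genes and 1 upstream gene passed. With array weights the counts were 6, 1263, 5, 3, 3 and 1 in that order. Above the 25th percentile 869 genes, 4 regulators and 3 substrates passed, and with a trended prior 828, 3 and 3. After a second quantile normalization these counts were 697, 2 and 2, and after centring 620, 2 and 0.

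Same-numbered arrays were not treated as pairs in the main fit. Their deviations from the group means correlated at 0.09, 0.10, 0.09 and 0.06, and those of differently numbered arrays at -0.305 to 0.3715. These values do not settle whether the arrays were paired. With the replicate number as a block, 1 member (Mmp9), 93 genes, 0 regulators and 0 substrates passed. With plate row as a block 1 member (Mmp7, lower), 70 genes, 0 regulators and 0 substrates passed, and with plate column 0, 72, 0 and 0.

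Without WT replicate 3 and IL37TG replicate 4, 5 members, 875 genes, 3 regulators, 4 substrates, 1 ADAM gene and 1 upstream gene passed. Without WT replicates 3 and 4 the counts were 5, 824, 4, 4, 1 and 1. Without IL37TG replicates 3 and 4, 0 members, 165 genes, 2 regulators, 0 substrates and 1 ADAM gene passed. Without the pair of transgenic arrays whose names end in 2, 0 members, 18 genes, 0 regulators and 0 substrates passed. At an adjusted p of 0.01 these counts were 0, 69, 0 and 0. At 0.10, 7 members, 1537 genes, 5 regulators, 5 substrates, 4 ADAM genes and 2 upstream genes passed, and at an unadjusted p of 0.05 18, 3878, 12, 12, 6 and 4. The number of arrays limits what can be said of small differences.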
